A study of Mus musculus with 36 samples.

Results

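Accessibility at the loci of 6 inhibitory receptors was followed in mouse CD4 T cells deficient for HP1α or for HP1γ and in their wild-type (WT) controls. It was measured by ATAC-seq, which reads out where a transposase can insert into DNA. The receptors were PD-1 (Pdcd1), LAG-3 (Lag3), TIM-3 (Havcr2), TIGIT (Tigit), CD96 (Cd96) and CD160 (Cd160). In GRCm39 the genes lie at chr1:93966027-93980312 (Pdcd1), chr6:124881320-124888765 (Lag3), chr11:46345673-46374149 (Havcr2), chr16:43469100-43484509 (Tigit), chr16:45856020-45940614 (Cd96) and chr3:96706079-96736667 (Cd160), all but Havcr2 on the minus strand. A consensus peak was counted as a member when its midpoint was nearest to a transcription start site (TSS) of a protein-coding transcript of one of these genes in the GENCODE annotation of GRCm39, or when it overlapped the gene body. Of 71509 peaks, 44 met this rule, with 9 at Pdcd1, 4 at Lag3, 8 at Havcr2, 14 at Tigit, 8 at Cd96 and 1 at Cd160. All 44 passed the filter on low counts and were tested. Of these peaks, 27 lay over a gene body, 6 covered the canonical TSS of their gene, 19 were centred in an intron and 1 in a coding exon, 12 lay upstream and 6 downstream. Their widths ran from 200 to 6970 bp, with a median of 1260 bp. A peak is named here by its gene and by the distance in bp of its centre from the canonical TSS, negative when upstream.

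The mice came from separate lines on a mixed 129/Sv and C57BL/6 background. HP1α knockout (KO) mice were Hp1a-/-, made by excising a floxed allele with CMV-cre, and their controls were Hp1a+/+ littermates. HP1γ KO mice were Hp1g fl/fl with Cd4-cre, which acts in T lineage cells, and their controls were Hp1g fl/fl littermates without the cre, so that in the HP1γ line the transgene and the loss of HP1γ went together and cannot be told apart. In each line and genotype, naive CD4 T cells from the spleen were profiled (naive). Conventional T cells were recovered from the spleen 3 weeks after transfer with a mixture of B6 and B6D2F1 bone marrow (Tconv). The hosts were lethally irradiated C57BL/6J or CD45.1+ B6 mice. Such cells were also recovered when ex vivo expanded regulatory T cells had been co-injected (with Treg). The recovered cells were sorted as CD4+ and Thy1.1- and carried TCR Vβ6, and the co-injected Treg, from Foxp3-Thy1.1 mice, could thus be gated out. This gave 12 groups of 3 libraries. The study left out 3 HP1α libraries with Treg for low signal (WT replicate 3 and KO replicates 2 and 3), which leaves 2 WT libraries and 1 KO library in that condition. Levels of the peaks described with Treg are given with and without them, as are the counts of calls and most estimates, while locus means, marker sums and estimates with no second value are of the kept libraries.

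PD-1 carries inhibitory motifs that recruit the phosphatase SHP-2 (Ptpn11) on binding of PD-L1 (Cd274) or PD-L2 (Pdcd1lg2). LAG-3 is a relative of CD4 that binds MHC class II, and its gene lies next to Cd4. TIM-3 binds galectin-9 (Lgals9) and CEACAM1, and its tail binds Bag6. TIGIT competes with the activating receptor CD226 for CD155 (Pvr) and Nectin-2. CD96 shares CD155 as a ligand with TIGIT and CD226, and whether it inhibits or costimulates T cells is debated. CD160 binds HVEM (Tnfrsf14), which is also the ligand of BTLA. Activated T cells express PD-1, LAG-3, TIM-3 and TIGIT, and persistent expression of several of them is a hallmark of exhausted T cells. HP1α and HP1γ bind methylated histone H3 in heterochromatin.

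The libraries held 1.49 to 96.8 M reads in peaks (median 54.8 M), and the HP1α WT libraries with Treg were shallow, at 12.7 M for replicate 1 and 1.49 M for replicate 2. Levels are read counts per M reads in peaks (CPM) after TMM scaling. The peak over the start of Cbx5, which encodes HP1α, changed between HP1α KO and WT by -0.11, 0.01 and 0.13 on the log2 scale in naive cells, Tconv and Tconv with Treg, and the peak over the start of Cbx3, which encodes HP1γ, by 0.02, 0.02 and 0.11 between HP1γ KO and WT. Neither was called in its line, so accessibility did not check the deletions. The T cell genes Cd3e, Cd3d and Thy1 had peaks over their starts with signal in every kept library. Of the B, NK and myeloid genes only Itgam had a peak over its start. The peaks used for Ms4a1, Ncr1, Csf1r and Lyz2 lay at -27090, 89805, -37295 and 52076 bp from the start. By the rule used for members these genes had 0 peaks. Sums over these lists are therefore not a measure of how many such cells were present. The labels do not say that replicates came from separate mice, and p-values then measure only the spread between these libraries.

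Sequences of GRCm39 are printed for 7 of the peaks described below and for 2 promoters. Those of the peaks are 200 bases around the centre of each peak on the strand of its gene, 5′ to 3′. Capitals mark matches, on either strand, to letters typical of factors that act after T cell receptor signalling or in T cell differentiation, which are TGANTCA for AP-1, GGAAAA for NFAT, GGTGTGA for T-box factors, AACCACA for RUNX and AAAGGTCA for NR4A, none of which contains another. The first set holds peaks that passed the adjusted p upward in KO at Pdcd1, Lag3, Havcr2 and Tigit in the HP1γ line with Treg (chr1:93970141-93970340, chr1:94004551-94004750, chr6:124884863-124885062, chr11:46365241-46365440 and chr16:43515436-43515635, of which the Havcr2 peak is on the plus strand and the rest on the minus strand). Of these, Lag3 +3706 and Tigit -31026 stayed under the fold threshold. Tigit +35389, the other Tigit peak to which the results return, lies over an annotated untranslated region of Zbtb20 and is not printed.
Pdcd1 +10072: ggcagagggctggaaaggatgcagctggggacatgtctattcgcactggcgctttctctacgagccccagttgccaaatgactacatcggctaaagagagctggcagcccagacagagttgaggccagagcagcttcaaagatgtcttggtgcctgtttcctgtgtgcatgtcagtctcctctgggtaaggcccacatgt
Pdcd1 -24338: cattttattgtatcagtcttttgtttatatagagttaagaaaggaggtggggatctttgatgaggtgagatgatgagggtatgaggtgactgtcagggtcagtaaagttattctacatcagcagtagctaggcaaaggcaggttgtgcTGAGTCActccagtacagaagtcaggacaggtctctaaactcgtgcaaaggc
Lag3 +3706: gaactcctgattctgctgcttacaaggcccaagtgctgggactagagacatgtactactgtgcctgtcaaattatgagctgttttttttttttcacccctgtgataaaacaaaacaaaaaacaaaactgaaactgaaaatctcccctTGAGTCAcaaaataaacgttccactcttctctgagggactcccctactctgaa
Havcr2 +19667: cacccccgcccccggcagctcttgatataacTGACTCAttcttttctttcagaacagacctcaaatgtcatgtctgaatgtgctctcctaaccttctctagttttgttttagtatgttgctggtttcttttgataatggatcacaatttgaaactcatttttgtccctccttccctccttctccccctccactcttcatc
Tigit -31026: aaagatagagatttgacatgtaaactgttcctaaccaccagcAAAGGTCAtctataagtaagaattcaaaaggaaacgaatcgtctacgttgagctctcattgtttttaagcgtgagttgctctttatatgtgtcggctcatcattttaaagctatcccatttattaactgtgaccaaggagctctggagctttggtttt

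The second set holds peaks in the introns of Cd96 that were lower in KO in the same comparison (chr16:45926861-45927060 and chr16:45928086-45928285, minus strand), the first of which is shown whole.
Cd96 +13654: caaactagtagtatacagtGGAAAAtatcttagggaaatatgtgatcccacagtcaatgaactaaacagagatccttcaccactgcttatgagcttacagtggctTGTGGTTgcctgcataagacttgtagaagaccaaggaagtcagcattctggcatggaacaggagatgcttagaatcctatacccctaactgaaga
Cd96 +12429: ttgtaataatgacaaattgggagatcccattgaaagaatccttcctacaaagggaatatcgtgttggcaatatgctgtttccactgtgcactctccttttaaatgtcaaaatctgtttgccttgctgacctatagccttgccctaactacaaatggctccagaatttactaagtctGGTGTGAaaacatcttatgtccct

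The third set sets the 250 bases before the start of Pdcd1 (chr1:93980313-93980562, minus strand), whose TSS peak was higher in KO, beside those of Cd96 (chr16:45940615-45940864, minus strand), whose TSS peak did not pass the test.
Pdcd1 promoter: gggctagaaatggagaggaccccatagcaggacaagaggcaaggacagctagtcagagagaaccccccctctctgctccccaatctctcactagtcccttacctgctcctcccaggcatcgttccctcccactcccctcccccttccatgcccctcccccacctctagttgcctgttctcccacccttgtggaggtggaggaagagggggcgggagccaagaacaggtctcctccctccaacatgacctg
Cd96 promoter: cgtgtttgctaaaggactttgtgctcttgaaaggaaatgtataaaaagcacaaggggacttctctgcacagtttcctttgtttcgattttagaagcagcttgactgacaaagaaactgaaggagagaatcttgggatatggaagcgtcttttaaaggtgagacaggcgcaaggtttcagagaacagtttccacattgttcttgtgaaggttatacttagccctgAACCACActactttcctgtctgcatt

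The AP-1 letters occurred in the Pdcd1 -24338, Lag3 +3706 and Havcr2 +19667 windows, and in 5 of the 44 central windows (11.4%), against 9.5% of the windows of all peaks. The RUNX letters occurred in 8 of the 44 (18.2%), against 9.63%, and are in both the Cd96 +13654 window and the Cd96 promoter. The NFAT letters were found in 6 (13.6%, against 15.5%), the T-box letters in 2 (4.55%, against 3.9%) and the NR4A letters in 2 (4.55%, against 1.34%). In 250 bases before 21770 protein-coding starts, AP-1, NFAT, T-box, RUNX and NR4A letters occurred in 6.17%, 21.9%, 3.23%, 4.23% and 1.19%. A match describes letters and shows no binding, and the Pdcd1 +10072 and Tigit +35389 windows and the Pdcd1 promoter hold none of the 5.

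Summed over its peaks and divided by their summed width, each locus gave a level in CPM per kb that can be compared between genes. By group mean Tigit was the most open of the 6 loci in all groups of recovered cells, at 11.4 to 19.7 CPM per kb in the HP1γ libraries with Treg. The naive groups stood lowest at 4 loci, with group means of 4.63 to 4.90 at Pdcd1, 5.29 to 5.95 at Lag3, 2.39 to 3.12 at Havcr2 and 6.76 to 7.70 at Tigit. At Cd96 the order was turned around, with naive means of 10.5 to 11.2 at the top.

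The HP1γ KO group with Treg had the highest mean at Pdcd1 (12.6, range 9.36 to 15.8), Lag3 (11.2, range 9.99 to 11.9) and Tigit (18.5, range 17.2 to 19.7). At Tigit its 3 libraries lay above those of the next group, HP1γ KO Tconv, at 15.3 (14.9 to 15.9), whereas at Pdcd1 and Lag3 its range overlapped that of the next group. At Havcr2 the highest mean was HP1γ WT Tconv (10.6), which overlapped HP1γ KO with Treg (9.99). At Cd96 the lowest means were HP1α WT with Treg (4.79, or 4.97 with the library left out) and HP1γ KO with Treg (5.67), whose ranges overlapped. Cd160 ran from 6.87 to 8.77 in all 12 groups and every neighbouring pair overlapped. Of the 11 neighbouring pairs in each order, 9 overlapped at Pdcd1, 10 at Lag3, 8 at Havcr2, 9 at Tigit and 10 at Cd96.

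**Figure D1:**
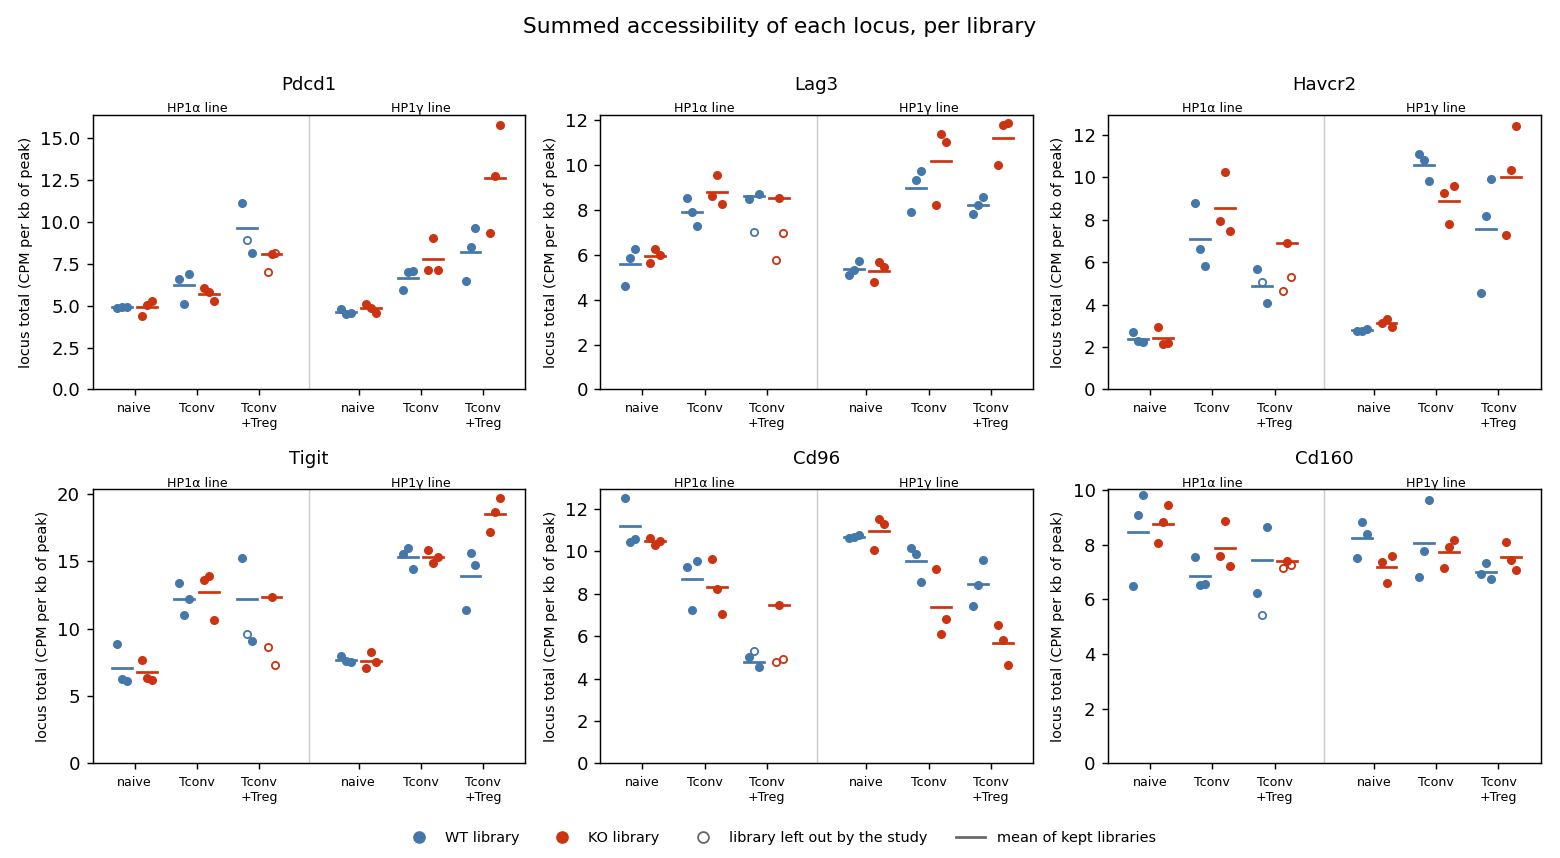
Summed accessibility of each locus in CPM per kb of peak (y axis, from 0) for every library, by line, genotype and cell state, with hollow points for the HP1α libraries the study left out. At Pdcd1, Lag3, Havcr2 and Tigit the naive group means are lowest, and at Cd96 they are highest, at 10.5 to 11.2, while single libraries can overlap between groups.

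The first question was which of these peaks open when naive cells become Tconv in hosts grafted with partly semi-allogeneic marrow. A peak was called at an edgeR adjusted p under 0.05 with an absolute log2 fold change over 1. In WT cells of the HP1γ line 25 member peaks were called higher and 3 lower, which is 63.6% of the 44, against 46.5% of all peaks tested, and the higher calls compare with 24.5% of all peaks called higher. In WT cells of the HP1α line 23 were called higher and 3 lower, which is 59.1%, against 42.5% of all peaks and 24.9% called higher. The median log2 fold change of the members was 1.41 in the HP1γ line and 1.29 in the HP1α line, with 0.08 and -0.03 over all peaks. In both lines 23 member peaks were called higher and 2 lower, and none was called in opposite directions.

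Peaks listed as markers of other cells moved beside these values, although most of those for B, NK and myeloid genes lay away from the starts. From naive WT to WT Tconv of the HP1γ line the summed CPM of 2 CD8 markers went from a range of 35.6 to 40.7 to one of 2.79 to 4.92, of 3 B cell markers from 28.1 to 29.7 to 13.1 to 19.7, and of 3 myeloid markers from 7.80 to 8.08 to 3.88 to 5.28. That of 2 NK markers was higher in Tconv, at 12.6 to 13.1 and 17.99 to 24.6, and the T cell list (291 to 310 and 321 to 347) did not overlap either, while the Treg list (194 to 204 and 175 to 202) did. In the HP1α line the CD8 list went from 35.7 to 40.4 to 3.42 to 9.81, the B cell list from 23.2 to 30.1 to 13.5 to 15.8, the myeloid list from 7.14 to 10.9 to 3.41 to 5.597 and the Treg list from 214 to 261 to 127 to 173, and the NK and T cell lists overlapped. No marker was at 0 in these libraries, and their part in the values was not tested.

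Havcr2 held the largest changes in both lines. Its TSS peak, at chr11:46343871-46346370, had 1.02, 1.03 and 1.42 CPM in the naive WT libraries of the HP1γ line and 24.6, 22.8 and 20.2 in WT Tconv. The groups were far apart, and the log2 fold change was 4.33 ± 0.30 (SE, edgeR adjusted p 3.2e-10). In the HP1α line it was 3.61. Of the 8 Havcr2 peaks 7 were called higher in each line, with the largest log2 fold change at +19667 in the HP1γ line (4.42) and at +7097 in the HP1α line (4.05). The -7178 peak, over the body of the neighbouring gene Med7, was the one not called.

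At Pdcd1 the intronic +10072 peak, at chr1:93969401-93971080, rose from 0.927, 0.624 and 0.855 CPM in naive WT to 8.80, 8.41 and 8.71 in WT Tconv of the HP1γ line. The log2 fold change was 3.50 there and 3.25 in the HP1α line. The TSS peak moved less, by 1.13 and 0.91, and was called only in the HP1γ line, a difference between lines that was not tested. The far upstream -94773 peak went the other way, at -2.47 and -2.11, and was called lower in both lines.

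At Lag3 the TSS peak was called higher (1.27 in the HP1γ line, 1.15 in the HP1α line), as were the +3706 peak (1.86 and 1.82) and the -1688 peak (1.54 and 1.53), which lies over the body of Ptms. The -1688 call was lost in 3 of 13 alternatives in the HP1γ line (without naive WT replicate 2 or WT Tconv replicate 2 or 3) and in 4 of 14 in the HP1α line, where the estimate ran from 0.65 to 2.49 and naive WT replicate 3 or WT Tconv replicate 2 ended the call when left out. At Tigit 9 peaks were called higher in the HP1γ line and 8 in the HP1α line, led by -27821 (3.09) in the former and +8814 (2.97) in the latter. The Tigit TSS peak was already open in naive WT cells of the HP1γ line, at 77.1, 71.1 and 68.4 CPM, and stood at 133, 131 and 129 in Tconv (log2 fold change 0.92, under the fold threshold). The Tigit peaks from +35389 to +45089 lie inside the body of Zbtb20, and which gene they act on was not tested.

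Cd96 was mixed. The +15504 peak was called lower in both lines (-1.88 and -1.53) and the +2384 peak, in a coding exon, higher (1.60 and 1.35, the latter 0.79 and not called without WT Tconv replicate 1), while the TSS peak, at 0.19 and -0.13, was not called. The single Cd160 peak, which covers its TSS, differed by 0.03 in the HP1γ line and -0.22 in the HP1α line, and was called in neither.

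**Figure D2:**
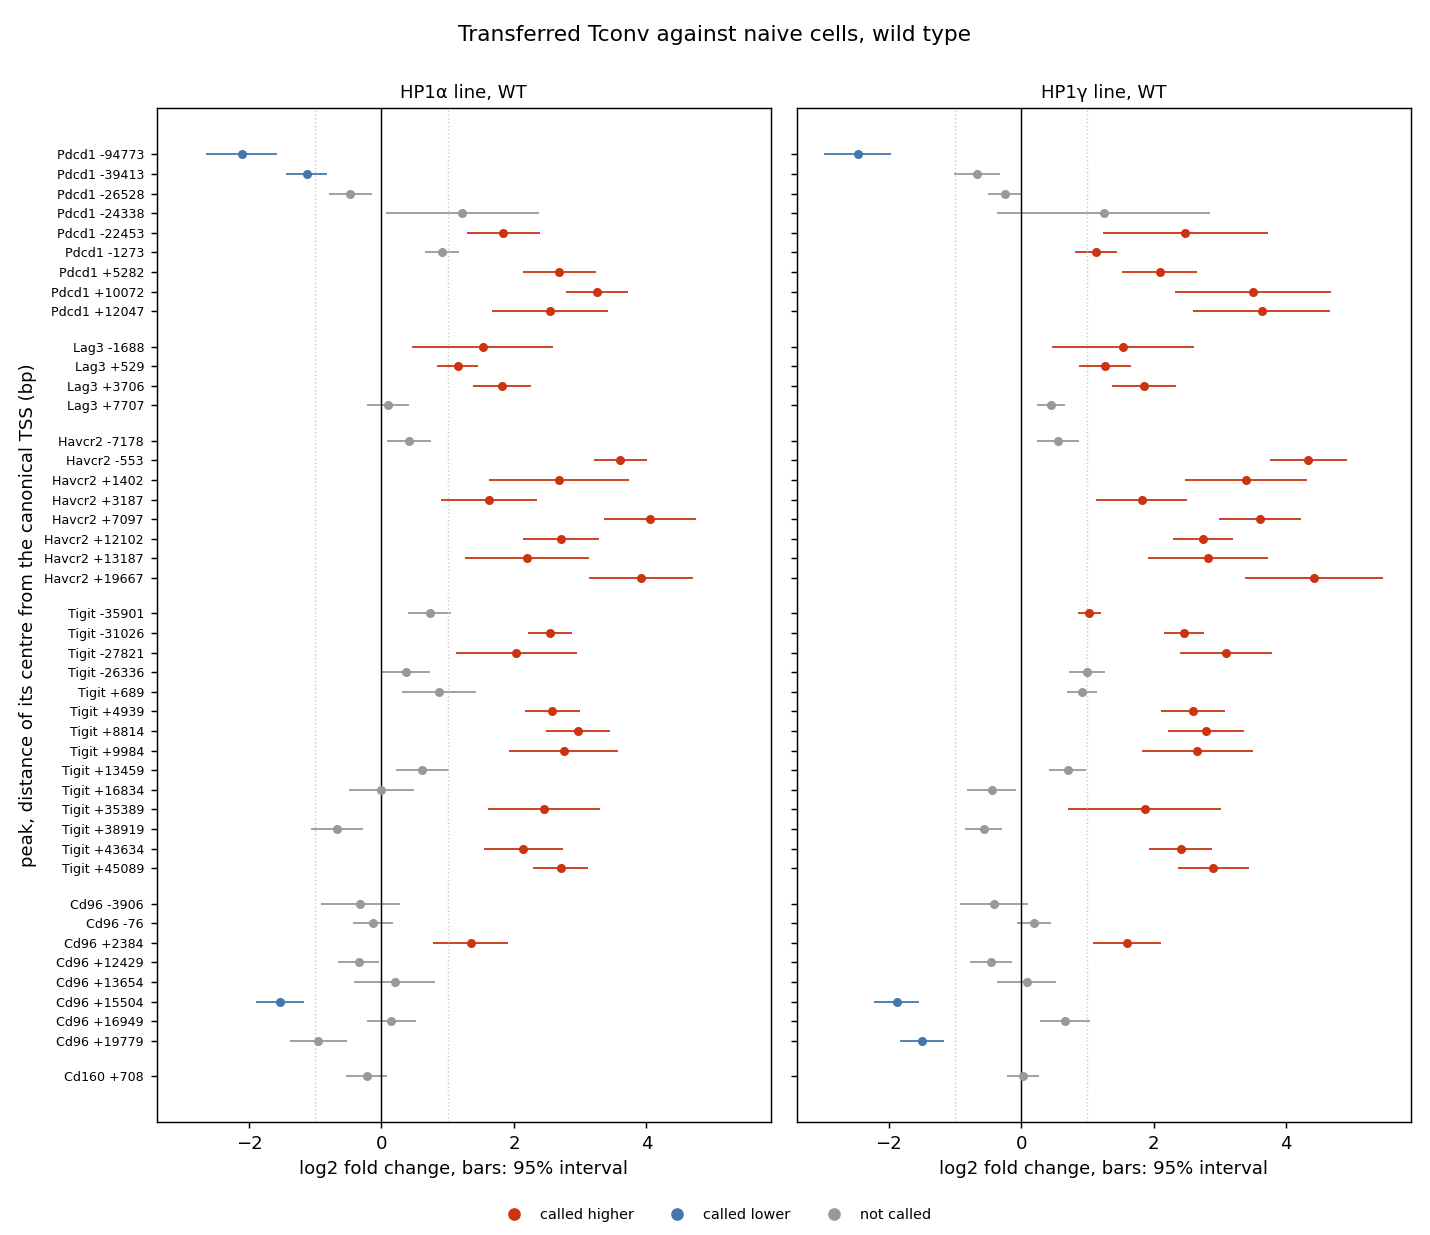
Log2 fold change of WT Tconv over WT naive cells (x axis) for the 44 peaks, named on the y axis by gene and distance in bp from the TSS, in the HP1α and HP1γ lines. Points are estimates, bars approximate 95% intervals, and colours mark peaks called higher or lower. All but 1 of the Havcr2 peaks lie right of 1 in both lines, and Pdcd1 -94773 and Cd96 +15504 lie left of -1.

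The second question was whether HP1γ loss changes these loci in Tconv exposed to Treg. Single peaks of Pdcd1, Havcr2 and Tigit were called higher in KO and 4 of Cd96 lower. Of the 44 peaks 5 were called higher in KO and 4 lower, which is 20.5% of the members, against 11.9% of all peaks tested (6.48% called higher and 5.38% called lower). At an adjusted p under 0.05 and any size of change, 11 were higher and 4 lower, and 20.5% of all peaks passed at that rule. The median log2 fold change was 0.26 over the members and -0.02 over all peaks. Among the 9 called peaks, the KO libraries all lay above the WT libraries at 1, all below at 4, and the groups overlapped at 4. DESeq2 called 8.

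At Pdcd1 the TSS peak, at chr1:93978101-93985070, held 75.1, 82.7 and 52.1 CPM in WT replicates 1 to 3 with Treg and 133, 87.2 and 129 in KO replicates 1 to 3. Every KO library lay above every WT library, and the log2 fold change was 0.71 ± 0.15 (SE, edgeR adjusted p 0.0041), under the fold threshold. The +10072 peak held 15.5, 18.2 and 9.28 CPM in WT and 55.7, 16.4 and 28.3 in KO. KO replicate 1 stood far above the others and KO replicate 2 lay within the WT range, and the log2 fold change was 1.18 ± 0.32 (adjusted p 0.0166).

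The Pdcd1 -24338 peak, at chr1:94004411-94004890, was weak, at 0.930, 0.822 and 1.81 CPM in WT and 3.90, 1.23 and 2.18 in KO. Its groups overlapped, and it was called at 1.23 ± 0.43 (adjusted p 0.048) but not under 7 of 13 alternatives. The nearby -22453 peak had 0.94 (adjusted p 0.067) and was not called. Over the 13 alternatives the +10072 estimate ran from 0.55, without KO replicate 1, to 1.51, without KO replicate 2, and the call was lost in 3, without KO replicate 1 or WT replicate 2 or 3.

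Lag3 moved in the same direction without reaching the fold threshold. Its TSS peak, at chr6:124886434-124889845, held 18.7, 18.03 and 16.7 CPM in WT and 35.8, 23.1 and 33.6 in KO, with no overlap, and differed by 0.78 ± 0.18 (adjusted p 0.0066). The intronic +3706 peak held 10.8, 9.16 and 9.19 in WT and 16.7, 12.03 and 17.4 in KO, also with no overlap (0.63 ± 0.21, adjusted p 0.038), but no longer passed under 6 of 13 alternatives, with an adjusted p of up to 0.15. The -1688 peak had 0.88 (adjusted p 0.067).

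At Havcr2 the TSS peak did not pass the test. It held 14.9, 21.6 and 8.90 CPM in WT and 24.0, 12.7 and 17.8 in KO, a log2 difference of 0.20 (adjusted p 0.54). Peaks deeper in the gene were called higher, +3187 at 1.05 ± 0.34 (adjusted p 0.034) and +19667, at chr11:46364801-46365880, at 1.02 ± 0.30 (adjusted p 0.023). The +19667 peak held 7.70, 6.997 and 2.95 CPM in WT and 19.6, 7.44 and 11.7 in KO. WT replicate 3 was low, KO replicate 1 was high and the groups overlapped. Of 13 alternatives, 6 lost the +3187 call and 5 the +19667 call, and both were lost without KO replicate 1.

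Tigit held the clearest rise. The +35389 peak, at chr16:43448741-43449500 inside the body of Zbtb20, was at 2.39, 1.77 and 2.57 CPM in WT and 7.73, 3.81 and 6.09 in KO. Every KO library exceeded every WT library, and the log2 fold change was 1.43 ± 0.29 (adjusted p 0.0026). It kept its call in all 13 alternatives, with 1.14 to 1.67. Below the fold threshold, 3 more Tigit peaks passed the test, the TSS peak (0.47 ± 0.12, adjusted p 0.0094), -31026 (0.68 ± 0.13, adjusted p 0.0023) and -35901 (0.40 ± 0.09, adjusted p 0.0043). The TSS peak held 151, 124 and 96.8 CPM in WT and 179, 164 and 176 in KO.

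Peaks of Cd96 were called lower. All 8 of its peaks had negative log2 fold changes, with a median of -0.93, and the 4 called lower lay together in the introns from +12429 to +16949. The +12429 peak, at chr16:45927521-45928850, held 7.92, 9.14 and 7.66 CPM in WT and 2.62, 4.79 and 3.54 in KO, without overlap. The difference was -1.17 ± 0.22 (adjusted p 0.0018).

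The narrow Cd96 +13654 peak held 1.21, 1.02 and 0.9996 CPM in WT and 0.255, 0.509 and 0.266 in KO, and showed the largest fall of the 44, at -1.63 ± 0.37 (adjusted p 0.0055), kept in all 13 alternatives. The +16949 peak had -1.17 ± 0.25 (adjusted p 0.0034) and +15504 had -1.05 ± 0.28 (adjusted p 0.0133), and the KO libraries lay below the WT libraries at both. The +15504 call was lost in 4 of 13 alternatives, with loess scaling and without KO replicate 1 (-0.65) or WT replicate 2 or 3, and the +16949 and +12429 calls without KO replicate 1. The TSS peak did not pass, at -0.36 (adjusted p 0.095), with 43.3, 49.0 and 35.3 CPM in WT and 28.9, 36.6 and 35.0 in KO. Cd160 held 20.4, 18.8 and 19.3 in WT and 19.7, 22.5 and 20.7 in KO, and its difference was 0.11, with an approximate 95% interval of -0.16 to 0.39.

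**Figure D3:**
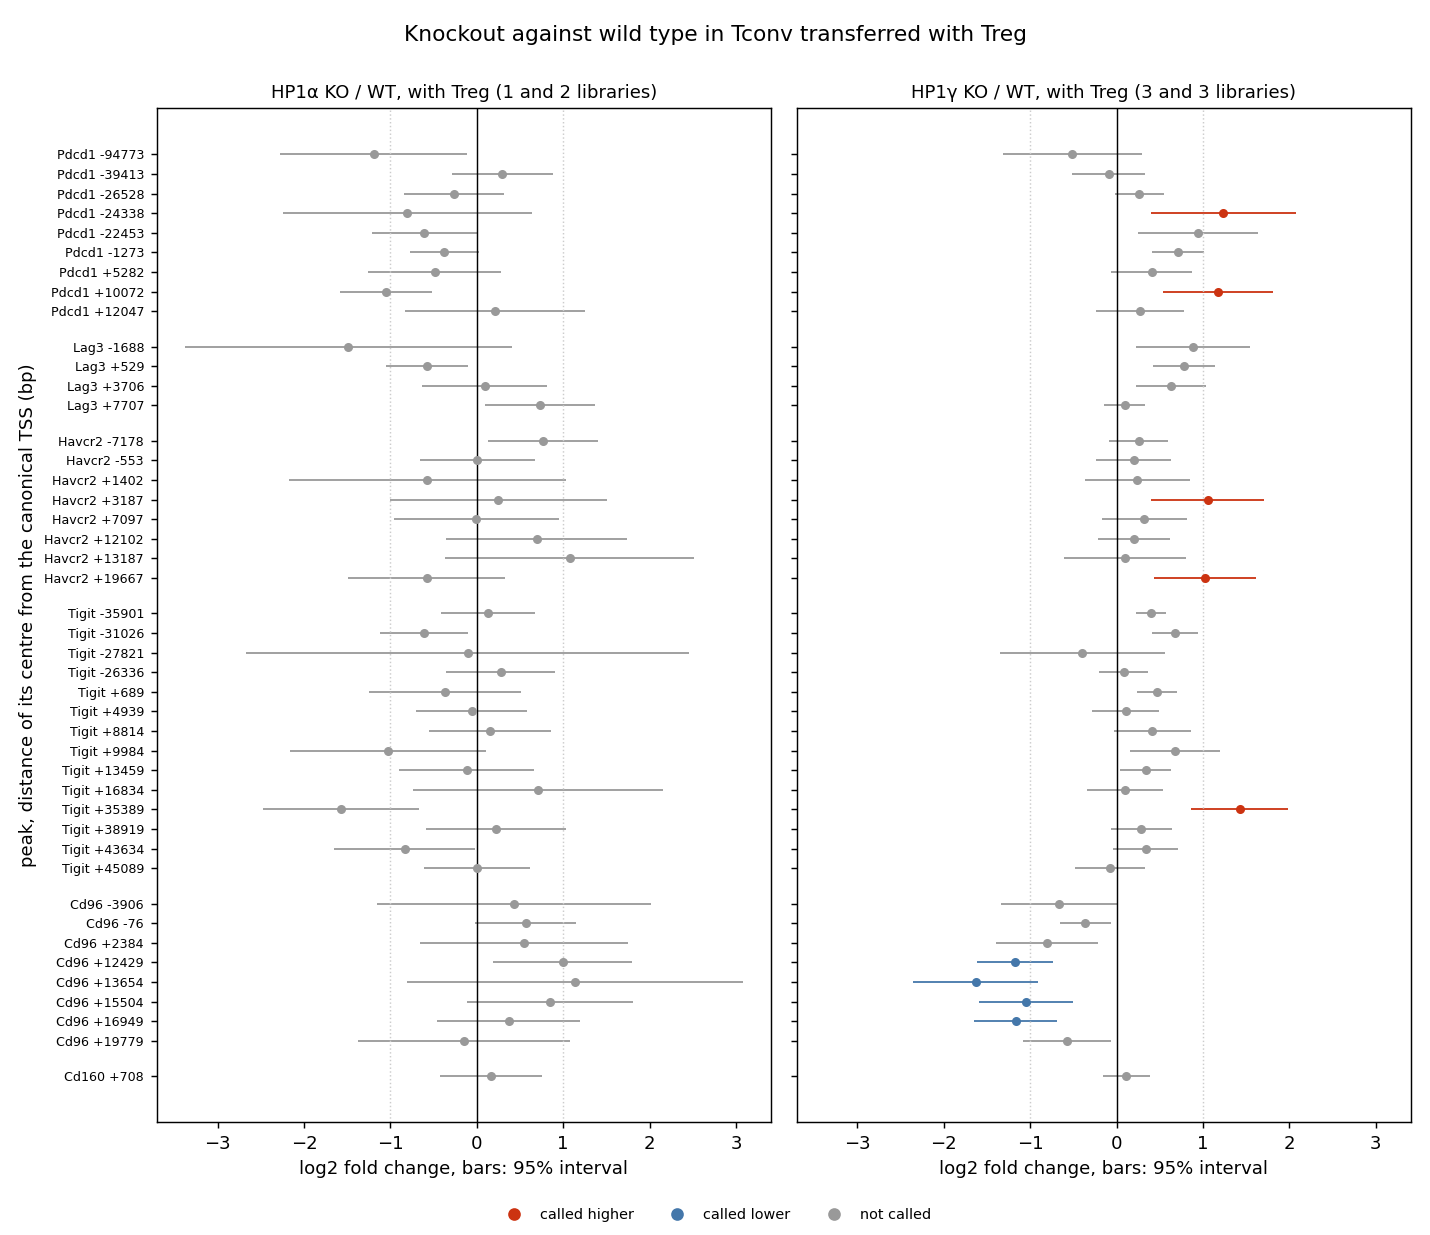
Log2 fold change of KO over WT cells with Treg (x axis) for the 44 peaks in the HP1α and HP1γ lines, named on the y axis by gene and distance in bp from the TSS. Points are estimates, bars approximate 95% intervals, and colours mark called peaks. In the HP1γ line the Cd96 points all lie left of 0 and Tigit +35389 lies at 1.43, and in the HP1α line no point is called.

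Libraries weighed on these calls. Without KO replicate 1, 2 of the 9 calls remained, Tigit +35389 and Cd96 +13654, and without WT replicate 2, 4 member peaks were called. Peaks listed as markers of other cells moved beside them. The peaks nearest to the myeloid genes Itgam (-1.32, adjusted p 0.0091) and Lyz2 (-1.42, adjusted p 0.038) and to the NK cell gene Klrb1c (-1.03, adjusted p 0.040) were called lower in KO. The peak used for Lyz2 lay at 52076 bp from its start and that for Klrb1c at -4611 bp. The summed CPM of 3 myeloid markers ran from 3.64 to 7.52 in WT and 1.77 to 2.71 in KO, and that of the NK list, of 2 markers, from 19.1 to 20.5 and 14.8 to 18.8.

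The T cell list of 4 markers summed to 215 to 307 CPM in WT and 698 to 850 in KO, and of its members Cd4 was called higher (2.60), whereas Cd3e (0.09), Cd3d (0.04) and Thy1 (-0.18) did not pass the test. The B cell list of 3 markers summed to 11.8 to 15.8 CPM in WT and 10.7 to 11.5 in KO, the CD8 list of 2 to 4.58 to 7.28 and 3.81 to 5.99, and the Treg list of 3 to 145 to 187 and 186 to 195. No marker of these lists was at 0 in these libraries. Among the Treg markers, the peak nearest to Foxp3 was not called (-0.03), Ikzf2 passed the test upward (0.75, adjusted p 0.0030) and Il2ra downward (-0.65, adjusted p 0.020). The part of other cells in the values of the receptors was not tested, and in these bulk samples fewer cells with an open locus and less signal per cell cannot be told apart.

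**Figure D4:**
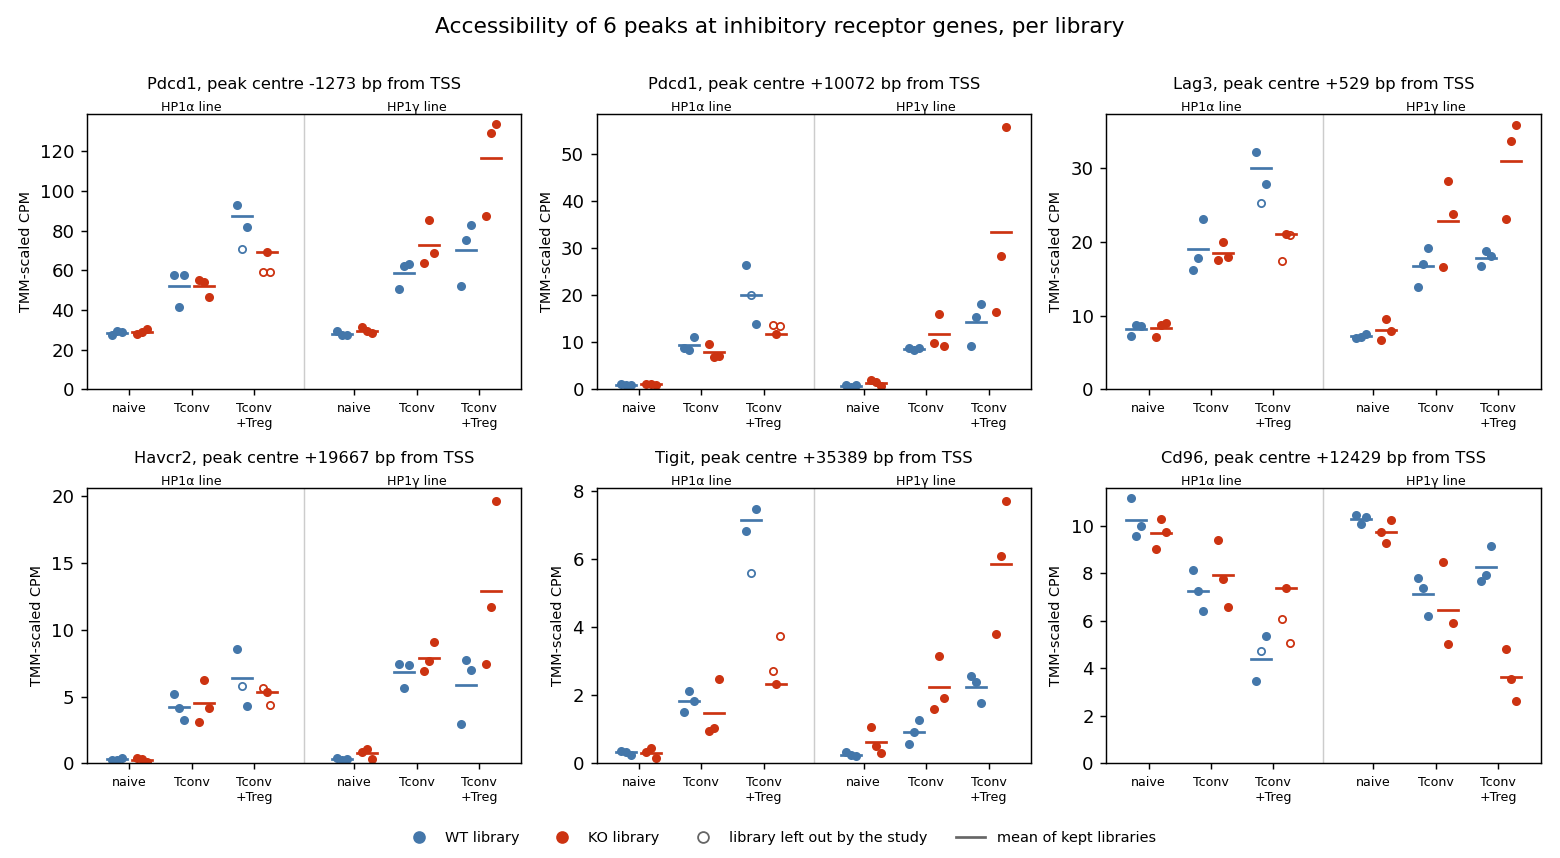
TMM-scaled CPM per library (y axis, from 0) of 6 peaks at 5 of the genes, by line, genotype and cell state, with hollow points for the HP1α libraries the study left out. In the HP1γ line with Treg, the 3 KO libraries lie above the WT libraries at Tigit +35389 and below them at Cd96 +12429.

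Away from Treg, the same line showed little that passed. In HP1γ KO against WT Tconv, 1 member peak was called, lower, of 3.35% of all peaks. This was Tigit -27821, at chr16:43512151-43512510, which held 4.65, 5.05 and 1.86 CPM in WT and 1.80, 1.59 and 0.779 in KO. WT replicate 3 lay near the KO libraries, and the change was -1.58 ± 0.32 (edgeR adjusted p 0.0081). The call was lost without KO replicate 3 (adjusted p 0.087), while estimates ran from -1.89 to -1.19 over 13 alternatives. The T cell list, which includes Cd4 (2.55), summed to 321 to 347 CPM in WT and 818 to 946 in KO. The CD8 list summed to 2.79 to 4.92 and 4.98 to 6.53. The Treg, B cell, NK and myeloid lists overlapped, and the part of all these in the values was not tested. In naive cells edgeR called 0 of 44 (2 at an unadjusted p under 0.05, 1 called by DESeq2). All peaks gave 0.14% called and 6421 of 71508 at that unadjusted p.

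The 5 peaks called higher with Treg had positive log2 fold changes in naive cells (0.42 to 1.35) and in Tconv (0.18 to 1.26), none of them called. The 4 Cd96 peaks had -0.19 to 0.36 in naive cells and -0.43 to -0.09 in Tconv. Whether the effect of HP1γ loss differed between Tconv with and without Treg was tested as an interaction. Here edgeR called 0 of 44 (10 at an unadjusted p under 0.05, 0 by DESeq2). All peaks gave 0.0014% called and 9150 of 71508 at that unadjusted p. A larger effect with Treg was therefore not shown at these peaks.

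The presence of Treg was compared with its absence within each genotype, and these comparisons share their Tconv and Treg libraries with those above. In HP1γ WT cells edgeR called 0 of 44 peaks (11 at an unadjusted p under 0.05, 2 by DESeq2). All peaks gave 0.137% called and 14522 of 71508 at that unadjusted p. With the replicate number as a block, 1 member peak was called. In HP1γ KO cells 5 were called higher and 1 lower, against 8.15% of all peaks. They were Pdcd1 +10072 (1.57), -22453 (1.48) and -24338 (1.54), Lag3 -1688 (1.42), Tigit +35389 (1.46) and, lower, Cd96 +13654 (-1.33). These 6 fell to 1 without KO replicate 1 with Treg, to 2 without KO Tconv replicate 1 and to 3 without KO Tconv replicate 3, and came to 11 without KO replicate 2 with Treg. The earlier form of the quasi-likelihood fit gave 3. Of 13 alternatives, Tigit +35389 kept its call in all, and the call was lost in 1 at Pdcd1 +10072, in 4 at -22453, in 5 at -24338, in 3 at Lag3 -1688 and in 4 at Cd96 +13654. Markers moved here too, with the myeloid list at 3.80 to 4.30 CPM in KO Tconv and 1.77 to 2.71 with Treg and the Treg list at 178 to 183 and 186 to 195. Itgam (-1.30, adjusted p 0.0088) and Klrb1c (-1.27, adjusted p 0.0113) were called lower with Treg, the T cell, CD8, B cell and NK lists overlapped, no marker was at 0, and their part in the values was not tested.

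In the HP1α line edgeR called no member peak between KO and WT. Among naive cells edgeR called 0 of 44 peaks (1 at an unadjusted p under 0.05, 0 by DESeq2), against 0.00559% of all peaks. In Tconv it called 0 (3 unadjusted, 0 by DESeq2), against 0.021%, and 1 without KO replicate 1. With Treg it called 0 (8 unadjusted, 0 by DESeq2), against 1.63%, and 0 with all 18 libraries (7 unadjusted). Library size alone, trended loess scaling, the replicate block and assignment by gene-level TSS each gave 1, lower in KO. The interaction of genotype and Treg called 0 (3 unadjusted, 0 by DESeq2), against 0.0461%, and 0 with all 18 libraries (3 unadjusted). Of all 71509 peaks, 835 passed the unadjusted p in naive cells, 3450 in Tconv, 11635 with Treg and 7391 in the interaction, with the kept libraries.

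The values with Treg were nonetheless unequal. Pdcd1 +10072 held 26.4 and 13.9 CPM in the WT libraries kept and 20.1 in the one left out, and 11.7 in the KO library kept and 13.6 and 13.5 in those left out. The log2 fold change of KO over WT was -1.05 ± 0.27 (adjusted p 0.057), and -0.86 (adjusted p 0.078) with all libraries. Tigit +35389 held 6.84, 7.48 and 5.61 CPM in WT and 2.33, 2.71 and 3.74 in KO, kept libraries first, with no overlap.

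At Tigit +35389 this gave -1.57 (adjusted p 0.092), and -1.32 (adjusted p 0.095) with all libraries. Cd96 +12429 held 3.46, 5.35 and 4.75 CPM in WT and 7.37, 6.10 and 5.06 in KO, with KO higher by 0.99 (adjusted p 0.23), and 0.82 with all libraries. The Lag3 TSS peak held 32.2, 27.8 and 25.2 CPM in WT and 21.0, 17.3 and 20.9 in KO, at -0.58 (adjusted p 0.24), and -0.52 with all libraries. None of these passed the test. In the kept libraries the summed CPM of 4 T cell markers ran from 135 to 186 in WT and was 270 in KO, that of 3 B cell markers was 8.02 to 8.34 and 14.2, with 1 marker at 0 in a WT library, and that of 2 NK markers 14.97 to 19.2 and 19.3. The CD8, Treg and myeloid lists overlapped. Thy1 (1.24, adjusted p 0.035) and Il2ra (1.35, adjusted p 0.047) were called higher in KO, and the part of all these in the values was not tested. Over the 5 peaks called higher in HP1γ KO with Treg the HP1α estimates ran from -1.57 to 0.25, and over the 4 called lower from 0.37 to 1.14.

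Treg were also compared with no Treg within the HP1α line. In WT cells, 3 member peaks were called higher with Treg than without, which is 6.82% of the 44 and close to the 6.77% of all peaks called. All 18 libraries gave 4, loess scaling 5, and DESeq2, the earlier form of the quasi-likelihood fit and the replicate block 6 each. They were Pdcd1 -22453 (1.93 ± 0.32, adjusted p 0.0015), Pdcd1 +10072 (1.45 ± 0.25, adjusted p 0.0018) and Tigit +35389 (2.05 ± 0.44, adjusted p 0.0088), and with all 18 libraries their estimates were 1.83, 1.38 and 1.97. The Tigit call was also lost without WT Tconv replicate 1 and with depth as a covariate. The TSS peaks of Pdcd1 (0.80, and 0.69 with all) and Lag3 (0.84, and 0.76 with all) passed the adjusted p under the fold threshold, Lag3 no longer in 4 of 13 alternatives. The Pdcd1 -22453 peak, at chr1:94002131-94003400, held 3.57, 4.08 and 4.55 CPM in WT Tconv and 15.3 and 8.55 in the WT libraries with Treg, with 11 in the one left out. Without WT replicate 1 with Treg, which left replicate 2 of 1.49 M reads alone, none of the 44 was called and none of all peaks. Markers moved beside these values. The 4 T cell markers summed to 233 to 299 CPM in WT Tconv and 135 to 186 with Treg, and the 3 B cell markers to 13.5 to 15.8 and 8.02 to 8.34. The NK list gave 19.9 to 23.3 and 14.97 to 19.2, and the Treg, CD8 and myeloid lists overlapped between the groups. With Treg, 1 marker each of the B cell, CD8 and myeloid lists was at 0 in a library. Thy1 (-1.39, adjusted p 0.0033) and Il2ra (-1.55, adjusted p 0.0044) were called lower with Treg and Ikzf2 (1.06, adjusted p 0.0061) higher, and the part of these in the values was not tested.

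In HP1α KO cells the arm with Treg was 1 library, assumed to vary like the other groups. Here 1 peak was called, Pdcd1 -22453 at 1.88 (adjusted p 0.0021), against 0.548% of all peaks, and the call was lost with the earlier form of the quasi-likelihood fit (adjusted p 0.33). It held 1.77, 3.05 and 3.45 CPM in KO Tconv and 9.38 in the KO library kept, with 8.32 and 8.20 in those left out. With all 18 libraries 3 were called higher and 1 lower, and these included Pdcd1 +12047 (1.33) and -24338 (1.91) and, lower, Tigit -27821 (-1.79). All 9 Pdcd1 peaks had positive estimates with Treg in both genotypes of the HP1α line, with medians of 0.93 in WT and 0.60 in KO. Over all peaks the medians were 0.097 and 0.038. These estimates share their few libraries, 2 of WT and 1 of KO with Treg.

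Whether the effect of KO with Treg differed between the lines was tested in a fit of the 33 kept libraries, in which the HP1α side had 1 KO library and 2 WT libraries with Treg and the spread was pooled over the groups. The HP1γ effect minus the HP1α effect was called at 9 of the 44 peaks, 5 above 0 and 4 below, against 11.1% of all peaks, and at 8 with all HP1α libraries. It was above 0 at Tigit +35389 (2.91 ± 0.62, adjusted p 0.0026), Pdcd1 +10072 (2.16 ± 0.64, adjusted p 0.025), the Pdcd1 TSS (1.02), the Lag3 TSS (1.28) and Tigit -31026 (1.22). It was below 0 at Cd96 +12429 (-2.26 ± 0.49, adjusted p 0.0028), +13654 (-2.85), +15504 (-1.98) and +16949 (-1.62). Of 16 alternatives, 7 lost the +13654 call, with estimates from -3.66 to -0.80, 8 the +16949 call, among them all HP1α libraries (-1.14), 4 the Pdcd1 TSS call and 2 the +15504 call. At +13654 the kept HP1α WT libraries held 4 reads each, or 0.30 and 2.14 CPM, and the one left out 2 reads, or 0.43 CPM. Without HP1α WT replicate 1 with Treg none of the 9 was called. Treg against no Treg in WT cells called 6.77% of all peaks in the HP1α line and 0.137% in the HP1γ line. The paper states that Treg did not effectively repress WT cells at the ratio of its HP1γ experiment. The line, its breeding and any difference in Treg exposure cannot be told apart from the isoform lost.

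Lag3 lies beside Cd4, and the Cd4-cre of the HP1γ KO mice carries regulatory sequence of Cd4. The peak over the start of Cd4, centred 27300 bp from the Lag3 TSS, was higher in HP1γ KO than WT by 2.77, 2.55 and 2.60 in naive cells, Tconv and Tconv with Treg. The peak at 10475 bp was higher by 1.71, 1.197 and 1.47. Reads from the transgene and from the endogenous gene cannot be told apart in these counts.

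Between those peaks and the Lag3 TSS, the Lag3 +7707 peak, which overlaps the end of the Lag3 body and is nearest to a Cd4 start, differed by -0.07, -0.03 and 0.09, and none of these was called. The Lag3 TSS differed by 0.45 in Tconv (adjusted p 0.16). On the far side, the Ptms peaks at -5736 and -8064 bp differed by 0.18 (adjusted p 0.27) and 0.60 (adjusted p 0.034) with Treg.

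**Figure D5:**
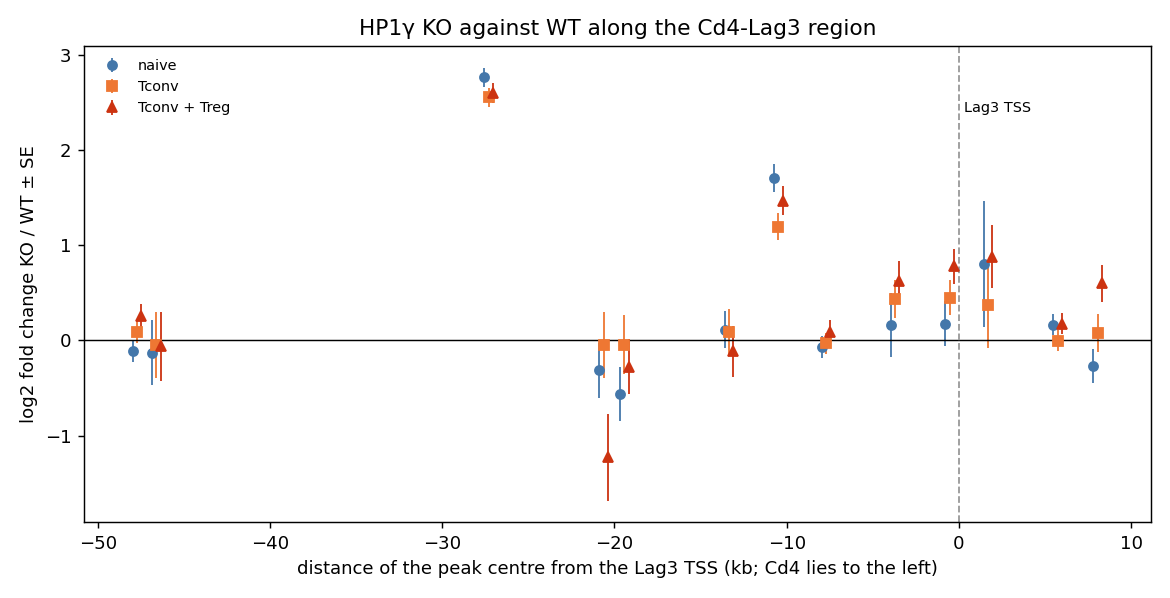
Log2 fold change of HP1γ KO over WT (y axis) for peaks around the Lag3 TSS, by distance of the peak centre in kb (x axis), in naive cells, Tconv and Tconv with Treg. The peak over the Cd4 start, at 2.55 to 2.77, and the peak at 10475 bp stand above the Lag3 peaks.

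Ligands, related receptors and signalling partners of the 6 receptors held 209 peaks. In HP1γ KO against WT with Treg 8 were called higher and 16 lower, which is 11.5% and close to the 11.9% of all peaks, with 32 passing the adjusted p in each direction and a median log2 fold change of -0.03. CD226, the activating rival of TIGIT, held 28 of these peaks, of which 8 were called lower and none higher. Its TSS peak fell by 0.63 on the log2 scale (adjusted p 0.035), with all KO libraries below WT. Btla, a fellow receptor of HVEM, held 2 of 13 called higher, with 0.49 at the TSS (adjusted p 0.030), and Cd244a (1 of 8) and Vsir (1 of 6) each held a peak called lower.

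Among ligands, the TSS peaks of Nectin1 (0.60, adjusted p 0.0048) and Nectin2 (0.52, adjusted p 0.0044) passed upward under the fold threshold. Those of Ceacam1 (-1.01, adjusted p 0.0496) and Lgals9 (-0.52, adjusted p 0.047), ligands of TIM-3, passed downward, and Ceacam1 was called. Away from the TSS peaks, Nectin1 had 1 of 8 peaks called higher, Hmgb1 1 of 10 and Tnfrsf14 1 of 5, and Pvr, which encodes CD155, 1 of 7 called lower. No peak of Cd274 or Pdcd1lg2 was called. Among signalling genes, Ptpn11, which encodes SHP-2, held 3 of 9 peaks called higher, Inpp5d, which encodes the phosphatase SHIP-1, 2 of 13 called lower, Fyn 1 of 48 lower and Csk 1 of 9 lower, while none of Ptpn6, Bag6 and Grb2 was called. Fgl1 had 0 peaks. In WT Tconv against naive cells of the HP1γ line 70 of the 209 were called higher and 27 lower, which is 46.4%, close to the 46.5% of all peaks.

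Over the 12 group means, the summed accessibility of 14663 genes was compared with that of each receptor as a description. The closest patterns by Pearson correlation were Fgf2 (0.979) and Cpa5 (0.973) for Pdcd1, Ccn4 (0.989) and Dcxr (0.988) for Lag3, Etfb (0.987) and Adam19 (0.987) for Havcr2, Serpinb1c (0.993) and Gpr160 (0.990) for Tigit, Tmem121b (0.990) and Gpr34 (0.981) for Cd96 and Ubap1 (0.956) and Vegfb (0.933) for Cd160. The groups share libraries, hosts and scaling across genes.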

How the data were processed

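The authors deposited ATAC-seq data as raw read counts for each consensus peak, with no normalization. Per the study's methods and processing notes, reads were trimmed with Trim Galore 0.6.7, aligned to GRCm39 with BWA, filtered for duplicates and mapping quality, peaks were called with HMMRATAC and merged, and overlaps were counted with featureCounts 2.0.3. Of 71512 intervals, 3 without width were left out. All 36 columns were used, each matched to its sample by name. Peaks were filtered with filterByExpr, scaled by TMM and fitted in edgeR 4.0.16 under R 4.3.3, whose two-sided quasi-likelihood test was adjusted by Benjamini-Hochberg across all peaks in each of 15 comparisons. The HP1α fit held 15 libraries, or 18 as an alternative, the HP1γ fit 18 and the joint fit 33. Biological coefficients of variation were 26.6% (HP1α) and 22.2% (HP1γ). DESeq2 1.42.0 and other settings served as alternatives.

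The members and lists were chosen with earlier results of these data known. Named were the TSS peak of each member, every member peak called between KO and WT, the peak of smallest p in HP1γ KO against WT with Treg and the largest change in WT Tconv against naive cells of each line, and further peaks of these genes were named after their values were seen. Motif letters were searched in 200-base windows at peak centres. Same-numbered libraries deviated together, every correlation over 0.1, between naive KO and WT of the HP1α line (0.247 to 0.50), between Treg-exposed KO and WT of the HP1γ line (0.147 to 0.323) and between HP1γ WT with and without Treg (0.202 to 0.286), although no label explains the replicate number.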

Additional observations from a re-analysis of the deposited data

Results flagged for a closer look

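The effect of KO with Treg differed between the lines, by a test of the difference itself over 33 libraries (edgeR), at 9 member peaks, against 11.1% of all peaks, and at 8 with all HP1α libraries. The HP1α side had 1 KO library and 2 WT libraries with Treg, and the spread was pooled over the groups. The HP1γ effect minus the HP1α effect was 2.16 at Pdcd1 +10072, 1.02 at Pdcd1 -1273, 1.28 at Lag3 +529, 2.91 at Tigit +35389 and 1.22 at Tigit -31026. At Cd96 it was -1.62 at +16949, -1.98 at +15504, -2.85 at +13654 and -2.26 at +12429. Of 16 alternatives, 8 lost the call at Cd96 +16949, 7 at +13654 (range -3.66 to -0.80), 4 at Pdcd1 -1273 and 2 at Cd96 +15504, some of them by leaving out 1 HP1γ library. Without HP1α WT replicate 1 with Treg none of the 9 differences was called. The line, its breeding and any difference in Treg exposure cannot be told apart from the isoform lost.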

How the results depend on the processing

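In HP1γ KO against WT with Treg (9 called) leaving out 1 library gave 2 to 11, with 2 without KO replicate 1 and 4 without WT replicate 2. The corresponding ranges were 0 to 2 in HP1γ Tconv (1 called), 0 to 1 for Treg against no Treg in HP1γ WT (0), 1 to 11 in HP1γ KO (6), 0 to 1 in HP1α Tconv KO against WT (0), 0 to 3 for Treg against no Treg in HP1α WT (3), 1 to 3 in HP1α KO (1) and 0 to 13 for the difference between lines (9). The only kept HP1α KO library with Treg could not be left out.

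With DESeq2, 1 peak was called in HP1γ naive cells, 2 in HP1γ Tconv, 2 for Treg in HP1γ WT and 6 for Treg in HP1α WT. The earlier form of the quasi-likelihood fit, added after seeing the data, gave 6 for Treg in HP1α WT, 0 in HP1α KO, 1 in HP1γ WT and 3 in HP1γ KO. With a trended loess scaling 1 was called in HP1α KO against WT with Treg, 5 for Treg in HP1α WT and 1 in HP1γ WT. In HP1α KO against WT with Treg library size alone and assignment by gene-level TSS each gave 1. All 18 HP1α libraries gave 4 for Treg in HP1α KO.

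With the replicate number as a block (replicate block), 1 peak was called in HP1α KO against WT with Treg, 6 for Treg in HP1α WT, 2 in HP1α KO and 1 in HP1γ WT, and no other count moved by over 1.5 times. The causes were not tested. Values of single peaks were followed only where the main fit had passed the adjusted p. Of these, 1406 kept their direction and still passed, and none reversed. Another 174 kept their direction and no longer passed (154 by the adjusted p and 20 by the fold threshold alone). The alternatives share their libraries with the main fit, so the lack of reversals says little. Tconv against naive stayed at 24 to 29 peaks in the HP1α line and 26 to 30 in the HP1γ line under every alternative. In the HP1α WT group with Treg, which held 2 libraries, 1 of them of 1.49 M reads, depth and the number of libraries cannot be told apart.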
